A study of Homo sapiens with 12 samples.

Results

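The EGF-family ligands AREG, EREG, HBEGF, TGFA and BTC and the neuregulin NRG1 were followed through K1 and TPC-1, 2 cell lines derived from human papillary thyroid cancers. They are 6 of the 61806 gene rows of the deposited table, taken by gene symbol, and each symbol matched 1 row. Cells had been transfected with TRIM35 siRNA or with negative control siRNA and were harvested after 24 h. The 4 groups of 3 libraries were K1 with TRIM35 siRNA, K1 with control siRNA, TPC-1 with TRIM35 siRNA and TPC-1 with control siRNA. The labels give the genotype as TRIM35 knockdown in the siRNA groups and WT in the control groups. Here WT means no knockdown, since both lines are tumour-derived. As background, K1 carries a BRAF mutation and TPC-1 a RET fusion. The question was at what level the mRNA of each ligand gene is found in each line, and whether TRIM35 siRNA changed that level.

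These ligands are made as membrane-anchored precursors, and proteases of the ADAM family release the active EGF-like part from the cell surface. The released ligands bind receptors of the ERBB family, which pair up and signal through RAS, ERK and PI3-kinase. AREG (amphiregulin) and TGFA (transforming growth factor alpha) bind EGFR. HBEGF (heparin-binding EGF-like growth factor), BTC (betacellulin) and EREG (epiregulin) bind EGFR and ERBB4, and NRG1 binds ERBB3 and ERBB4. In thyroid follicular cells EGF is known as a mitogen that also lowers differentiated function, and in carcinomas the ligands often act on the cells that make them.

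EREG, AREG and BTC lie close together on hg38 chromosome 4. EREG (ENSG00000124882) spans 74365145 to 74388749 and AREG (ENSG00000109321) spans 74445136 to 74455005, both on the plus strand. BTC (ENSG00000174808) spans 74744759 to 74794523 on the minus strand. HBEGF (ENSG00000113070) lies on chromosome 5 from 140332843 to 140346603, minus strand, and TGFA (ENSG00000163235) on chromosome 2 from 70447284 to 70554193, minus strand. No gene of the table that overlaps a ligand gene reached more than 3 counts in a library.

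The promoter windows shown next are those of the chromosome 4 ligands EREG, AREG and BTC and of HBEGF. Each runs over the 250 bases before the RefSeq start (GRCh38.p14), 5′ to 3′ on the gene's strand, and 5 of the 6 genes matched the RefSeq table. The motifs named next were searched on both strands, and their letters are in capitals. These were the cyclic AMP response element TGACGTCA, the AP-1 element TGANTCA, the TATA box TATAAA and the GC box GGGCGG. Neighbouring GC boxes may share a base.
EREG promoter (chr4:74364895-74365144, plus strand): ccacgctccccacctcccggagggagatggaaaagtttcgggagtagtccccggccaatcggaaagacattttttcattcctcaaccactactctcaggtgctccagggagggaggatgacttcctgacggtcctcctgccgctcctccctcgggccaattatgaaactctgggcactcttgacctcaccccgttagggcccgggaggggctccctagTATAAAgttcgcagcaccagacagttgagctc
AREG promoter (chr4:74444886-74445135, plus strand): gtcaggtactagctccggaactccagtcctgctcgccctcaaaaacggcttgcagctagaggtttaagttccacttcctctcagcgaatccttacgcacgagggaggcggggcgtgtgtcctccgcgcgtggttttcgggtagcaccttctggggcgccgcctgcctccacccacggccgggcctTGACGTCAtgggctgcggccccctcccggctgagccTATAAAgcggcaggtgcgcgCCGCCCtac
BTC promoter (chr4:74794524-74794773, minus strand): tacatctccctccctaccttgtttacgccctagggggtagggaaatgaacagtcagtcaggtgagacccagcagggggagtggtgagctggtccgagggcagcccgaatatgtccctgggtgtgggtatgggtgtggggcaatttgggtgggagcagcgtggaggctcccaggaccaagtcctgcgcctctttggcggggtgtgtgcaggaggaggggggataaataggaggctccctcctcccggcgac
HBEGF promoter (chr5:140346604-140346853, minus strand): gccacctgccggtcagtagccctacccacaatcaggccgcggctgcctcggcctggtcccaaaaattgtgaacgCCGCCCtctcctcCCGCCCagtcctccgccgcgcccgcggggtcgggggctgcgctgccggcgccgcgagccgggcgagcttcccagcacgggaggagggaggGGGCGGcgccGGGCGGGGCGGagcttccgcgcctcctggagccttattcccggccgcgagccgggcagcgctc

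In AREG the TGACGTCA letters lie from -65 to -58 and TATAAA from -29 to -24, counted from the start. AREG also holds a GC box from -9 to -4 and no TGANTCA. EREG holds TATAAA from -32 to -27 and none of the other searched letters. HBEGF holds 5 GC boxes and no TATAAA. The BTC window and the window of 1 of the TGFA starts hold none of the motifs, and the window of the other TGFA start holds 3 GC boxes. Of 35116 RefSeq windows of this length, 1.65% hold TGACGTCA, 6.57% TGANTCA, 10.7% TATAAA and 42.6% GGGCGG on either strand. A match describes these letters and is no evidence of binding.

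Library totals ran from 16705044 to 22928861 counts. TRIM35, the siRNA target, ranged from 1.20 to 1.53 FPKM in K1 siRNA against 1.47 to 1.85 FPKM in K1 control libraries, and from 2.34 to 2.58 FPKM in TPC-1 siRNA against 2.86 to 3.06 FPKM in TPC-1 control libraries. The siRNA level was 87.9% of control in K1 (95% interval 68.5% to 113%) and 84.8% in TPC-1 (66.8% to 108%), with adjusted p = 1 in both by edgeR's quasi-likelihood test. In TPC-1 the siRNA libraries lay below the control libraries, and in K1 they overlapped. A fall of the target mRNA was thus not detectable in either line, and the siRNA groups are called by their label, TRIM35 siRNA. The thyroid transcription factor genes PAX8 and FOXE1 were at 1 FPKM or more in every library of both lines. NKX2-1, TSHR and SLC5A5 stayed below 0.1 FPKM in every library, and so did TG in TPC-1. Of the epithelial markers KRT18 ranged from 24.7 to 41.9 FPKM in K1 and from 35.2 to 44.6 FPKM in TPC-1. KRT8 ranged from 23.0 to 31.6 FPKM in K1 and from 1.72 to 2.08 FPKM in TPC-1. KRT19 ranged from 1.4 to 2.99 FPKM in K1 and stayed below 0.1 FPKM in TPC-1. EPCAM reached at most 0.62 FPKM in K1 and 0.25 FPKM in TPC-1, and CDH1 stayed below 0.1 FPKM in both lines. Fibroblast markers summed to at most 2.41 FPKM and endothelial markers to at most 0.14 FPKM. Leukocyte markers summed to 4.35 to 6.12 FPKM in K1, mostly from CD14 (4.42 FPKM in K1 control libraries), and to 0.20 to 0.64 FPKM in TPC-1, and their part in the results was not tested. The title of TPC-1 control library 3 names another line, while its other labels give TPC-1. In K1, control library 1 and siRNA library 3 stand apart from control library 3 and siRNA library 1 on a first principal component that holds 54.3% of the variance.

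The lines held the mRNA of the 6 ligands in different proportions. By FPKM, the ligand mRNA in K1 was mainly HBEGF, TGFA and EREG, whereas in TPC-1 it was mainly TGFA. Levels here are FPKM (counts per kilobase of exonic size, scaled to the library's count sum). Genes are compared by it only as far as that size fits the transcripts present, which was not tested. Summed over the 6 genes, the level was 49.7 ± 2.72 FPKM in K1 siRNA, 48.2 ± 2.45 in K1 control, 36.0 ± 2.26 in TPC-1 siRNA and 36.8 ± 2.17 FPKM in TPC-1 control libraries (SD, n = 3 each). HBEGF held 49.3% ± 0.501 of this sum in K1 siRNA and 49.9% ± 0.694 in K1 control libraries, against 7.20% ± 1.58 in TPC-1 siRNA and 9.94% ± 1.62 in TPC-1 control libraries. TGFA held 30.4% ± 1.66 and 30.7% ± 1.02 in the same K1 groups, against 84.97% ± 2.17 and 81.9% ± 1.85 in the TPC-1 groups. EREG held 14.8% ± 2.10 and 13.6% ± 1.10 in K1, against 0.243% ± 0.0569 and 0.321% ± 0.102 in TPC-1. These are means of bulk RNA, in which fewer expressing cells and less RNA per cell cannot be told apart.

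**Figure D1:**
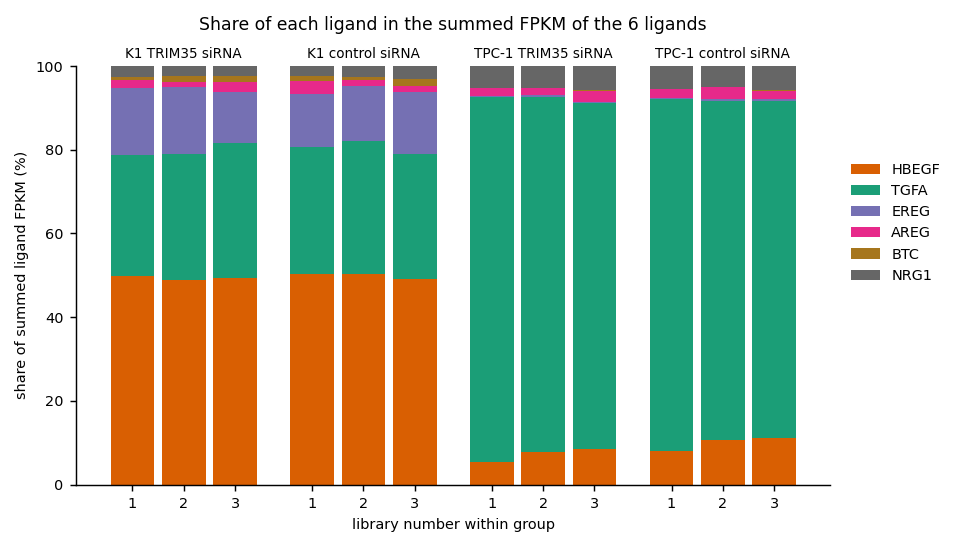
Share of each of the 6 ligand genes in their summed FPKM (vertical axis, percent), with 1 stacked bar for each of the 12 libraries, in groups of 3. HBEGF fills 48.8% to 50.3% of every K1 bar, and TGFA 80.7% to 87.2% of every TPC-1 bar.

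The order of the levels was the same in both K1 groups, namely HBEGF, TGFA, EREG, NRG1, AREG and BTC from high to low. In K1, NRG1 and AREG overlapped between libraries, as did AREG and BTC, so the order of the last 3 is not resolved. In both TPC-1 groups the order by FPKM was TGFA, HBEGF, NRG1, AREG, EREG and BTC. EREG and BTC overlapped in the TPC-1 siRNA libraries and not in the control libraries. Among the 17447 tested genes, the mean TGFA level in TPC-1 control libraries exceeded 91.9% of genes, and that of HBEGF in K1 control libraries exceeded 90.9%. NRG1 is scaled by an exonic size of 21.4 kb, the union over its transcripts, against 1.64 kb for AREG, so its FPKM depends on that size more than its counts do.

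Among the EGFR ligands, TGFA was lower in K1. It measured 14.7, 14.0 and 16.6 FPKM in K1 siRNA and 15.4, 15.2 and 13.7 FPKM in K1 control libraries, against 33.4, 28.7 and 29.6 FPKM in TPC-1 siRNA and 33.0, 28.9 and 28.5 FPKM in TPC-1 control libraries. Every K1 library lay below every TPC-1 library. The K1 level was 46.0% of TPC-1 under control siRNA (log2 fold change -1.12, SE 0.13, edgeR adjusted p = 1.67e-06). Under TRIM35 siRNA, in libraries not used for that comparison, it was 46.5% (log2 fold change -1.10, SE 0.13, adjusted p = 2.03e-06).

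AREG was low in both lines and varied more between K1 libraries than between the lines. It measured 0.98, 0.46 and 1.22 FPKM in K1 siRNA and 1.54, 0.60 and 0.73 FPKM in K1 control libraries, against 0.72, 0.56 and 0.90 FPKM in TPC-1 siRNA and 0.82, 0.98 and 0.70 FPKM in TPC-1 control libraries. The groups overlapped throughout, with the highest value in K1 control library 1 and the lowest in K1 siRNA library 2. The log2 fold change of K1 over TPC-1 was 0.12 under control siRNA (SE 0.43, 95% interval -0.79 to 1.03, adjusted p = 0.815) and 0.19 under TRIM35 siRNA (SE 0.44, -0.73 to 1.12, adjusted p = 0.707). Without K1 control library 1 the control value was -0.47, and without K1 siRNA library 3 the siRNA value was -0.18, neither called. The chi-square of the AREG counts among replicates was 5.65 per degree of freedom in K1 siRNA and 9.69 in K1 control libraries, against 1.34 in TPC-1 siRNA and 0.704 in TPC-1 control libraries. Values near 1 are what counting error alone gives, and higher values were usual for ligands with more counts, such as TGFA in TPC-1 (19.4 in siRNA and 18.4 in control libraries).

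HBEGF and EREG, which bind EGFR and ERBB4, were higher in K1. HBEGF measured 25.3, 22.7 and 25.5 FPKM in K1 siRNA and 25.6, 24.0 and 22.6 FPKM in K1 control libraries, against 2.07, 2.64 and 3.00 FPKM in TPC-1 siRNA and 3.17, 3.83 and 3.89 FPKM in TPC-1 control libraries. No K1 library came near the TPC-1 range. The K1 level was 6.19 times the TPC-1 level under control siRNA (log2 fold change 2.63, SE 0.16, adjusted p = 8.83e-10) and 8.92 times under TRIM35 siRNA (3.16, SE 0.17, adjusted p = 1.25e-10). The ratio of HBEGF to TGFA FPKM was 1.63 ± 0.0960 in K1 siRNA and 1.63 ± 0.0418 in K1 control libraries, against 0.0850 ± 0.0206 in TPC-1 siRNA and 0.122 ± 0.0222 in TPC-1 control libraries (SD, n = 3 each).

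EREG measured 8.09, 7.51 and 6.40 FPKM in K1 siRNA and 6.44, 6.35 and 6.81 FPKM in K1 control libraries. In TPC-1 it measured 0.07, 0.10 and 0.09 FPKM in siRNA and 0.08, 0.14 and 0.13 FPKM in control libraries, from 7 to 14 counts a library. The gene was thus plainly expressed in K1 and close to the detection limit in TPC-1. The K1 level was 52.4 times the TPC-1 level under control siRNA (log2 fold change 5.71, 95% interval 5.29 to 6.13, adjusted p = 9.99e-13) and 79.3 times under TRIM35 siRNA (6.31, 5.88 to 6.74, adjusted p = 4.56e-13). Of all tested genes, 5.41% had a larger absolute change between the control libraries. EREG passed the count filter through the K1 groups alone, so this rank is partly a condition of its being tested.

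BTC followed the same direction as EREG at a lower level. It measured 0.47, 0.70 and 0.75 FPKM in K1 siRNA and 0.64, 0.44 and 0.74 FPKM in K1 control libraries, against 0.06, 0.02 and 0.12 FPKM in TPC-1 siRNA and 0.06, 0 and 0.06 FPKM in TPC-1 control libraries. The counts behind these values summed to 97 in K1 siRNA and 98 in K1 control libraries, against 11 in TPC-1 siRNA and 6 in TPC-1 control libraries. Lines did not overlap. The fold change of K1 over TPC-1 was 13.0 under control siRNA (95% interval 5.18 to 32.6, adjusted p = 7.88e-05) and 8.80 under TRIM35 siRNA (3.85 to 20.1, adjusted p = 1.39e-04). The siRNA value was 3.87 on the log2 scale without TPC-1 siRNA library 3, against 3.14 with it.

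NRG1 (ENSG00000157168, chromosome 8, 31639222 to 32855666, plus strand), the ligand of ERBB3 and ERBB4, was moderately lower in K1. It measured 1.28, 1.12 and 1.18 FPKM in K1 siRNA and 1.20, 1.21 and 1.44 FPKM in K1 control libraries, against 2.00, 1.79 and 2.03 FPKM in TPC-1 siRNA and 2.12, 1.83 and 2.02 FPKM in TPC-1 control libraries. The lines did not overlap, although the gap was small. The K1 level was 60.1% of TPC-1 under control siRNA (log2 fold change -0.73, SE 0.12, adjusted p = 4.39e-05) and 57.8% under TRIM35 siRNA (-0.79, SE 0.12, adjusted p = 2.11e-05).

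**Figure D2:**
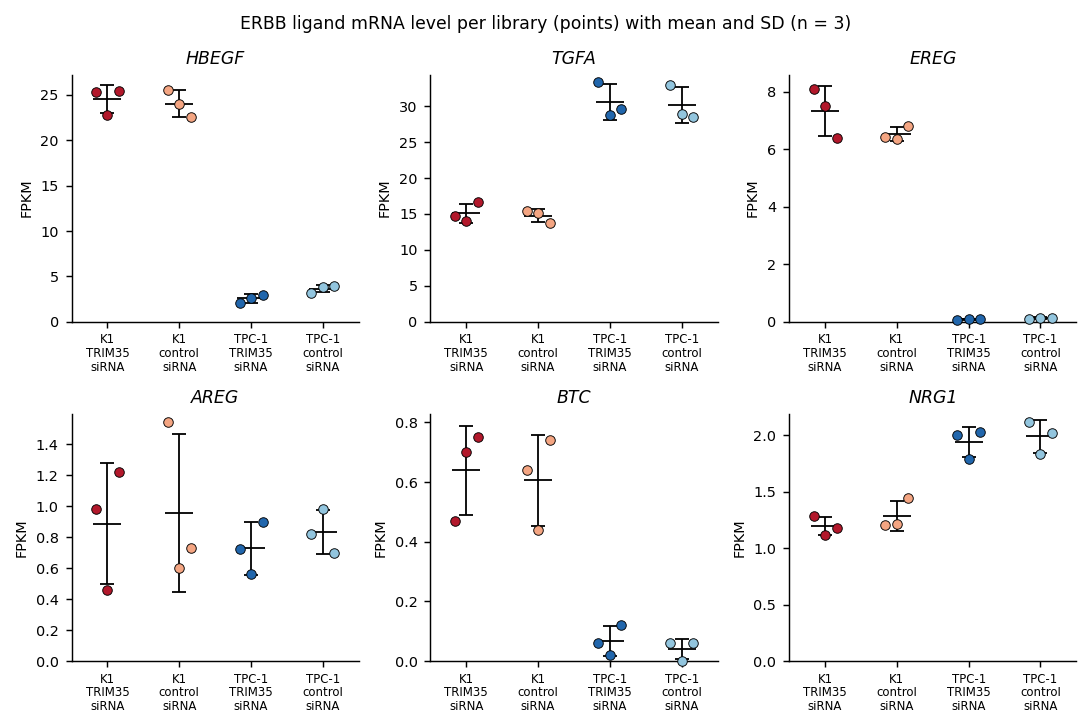
FPKM of each ligand gene (vertical axes, each from 0) in the 3 libraries of each group (points, in replicate order), with mean and SD (bars). HBEGF and EREG sit at 22.6 to 25.6 and 6.35 to 8.09 FPKM in K1, above every TPC-1 library, while AREG overlaps between lines.

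Between the lines, 5 of the 6 ligands passed the test under control siRNA, 3 higher (EREG, HBEGF and BTC) and 2 lower (TGFA and NRG1) in K1. The background was high, since 67.9% of tested genes passed, 35.8% higher and 32.1% lower in K1, and 5 of 6 does not set the ligands apart from it. The same 5 ligands passed in the same directions in the TRIM35 siRNA libraries, where 68.3% of genes passed, 35.9% higher and 32.4% lower. All 6 ligands were tested, but EREG and BTC passed the count filter through the K1 groups alone, so their difference was partly a condition of being tested. DESeq2 also called 5 ligands in each comparison. Limma on log2(FPKM + 0.1) called 4 of the 4 it tested, since AREG and BTC fell under its filter.

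After TRIM35 siRNA, no ligand passed the test in either line. In K1 the log2 fold changes of siRNA over control were 0.03 for HBEGF (95% interval -0.28 to 0.35), 0.04 for TGFA (-0.24 to 0.32), 0.17 for EREG (-0.12 to 0.46) and -0.09 for NRG1 (-0.34 to 0.16). These intervals lie within a 1.37-fold change upwards and a fall to 78.9% of control. For the low genes AREG (-0.13, -1.03 to 0.78) and BTC (0.10, -0.82 to 1.02) in K1 they are wider, spanning 49.0% to 171% of control for AREG and 56.7% to 203% for BTC. Without K1 control library 1 the K1 value of AREG was 0.46. The edgeR test called 0 of 6 ligands and 0 of 17447 genes in K1 (background 0%). At an unadjusted p under 0.05 there were 0 ligands and 136 genes, 0.78% of those tested. Without both K1 libraries 3, a setting chosen after the data had been seen, 1825 genes lay under that p and 0 were called. DESeq2 and limma on FPKM called 0 ligands. No ligand had all 3 K1 siRNA libraries on the same side of all 3 control libraries, a pattern that 5.25% of tested genes showed.

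In TPC-1, the HBEGF values quoted above were lower in all 3 siRNA libraries than in all 3 control libraries. The siRNA level was 71.0% of control (95% interval 55.8% to 90.5%, log2 fold change -0.49, SE 0.16), with an unadjusted edgeR p of 0.00872 and adjusted p = 1. The first principal component of the TPC-1 libraries (39.0% of the variance) put library 1 of both groups at one end and library 3 of both at the other. HBEGF was lowest in library 1 of either TPC-1 group, at 2.07 FPKM with TRIM35 siRNA and at 3.17 FPKM with control siRNA, and highest in library 3 of either, and the part of that component in the HBEGF difference was not tested. HBEGF was the 1 ligand whose siRNA and control libraries did not overlap in TPC-1, where 5.23% of tested genes showed that pattern. The other TPC-1 log2 fold changes were 0.02 for TGFA (-0.25 to 0.29), -0.04 for NRG1 (-0.28 to 0.21), -0.20 for AREG (-1.13 to 0.73), -0.43 for EREG (-1.05 to 0.19) and 0.66 for BTC (-1.07 to 2.40). Without TPC-1 siRNA library 3 the BTC value was -0.082. In TPC-1 the edgeR test called 0 of 6 ligands and 0 genes (background 0%), with 1 ligand and 337 genes, 1.93% of those tested, at an unadjusted p under 0.05. DESeq2 and limma called 0 ligands.

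The effects of the siRNA did not differ detectably between lines. For HBEGF, the difference of log2 fold changes, K1 minus TPC-1, was 0.53 (95% interval 0.06 to 1.00) with an adjusted p of 1.00 by edgeR. Its p before adjustment was 0.0304 by the same quasi-likelihood test, fitted across all genes. The difference was 0.60 for EREG (-0.09 to 1.29), 0.02 for TGFA (-0.37 to 0.41), -0.06 for NRG1 (-0.41 to 0.29), 0.07 for AREG (-1.23 to 1.37) and -0.56 for BTC (-2.50 to 1.38). Without TPC-1 siRNA library 3 the BTC difference was 0.18, and without K1 control library 1 that of AREG was 0.66. EdgeR called 0 ligands and 0 genes for the difference (background 0%), and DESeq2 and limma called 0 ligands. At an unadjusted edgeR p under 0.05 there were 1 ligand and 301 genes, 1.73% of those tested.

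**Figure D3:**
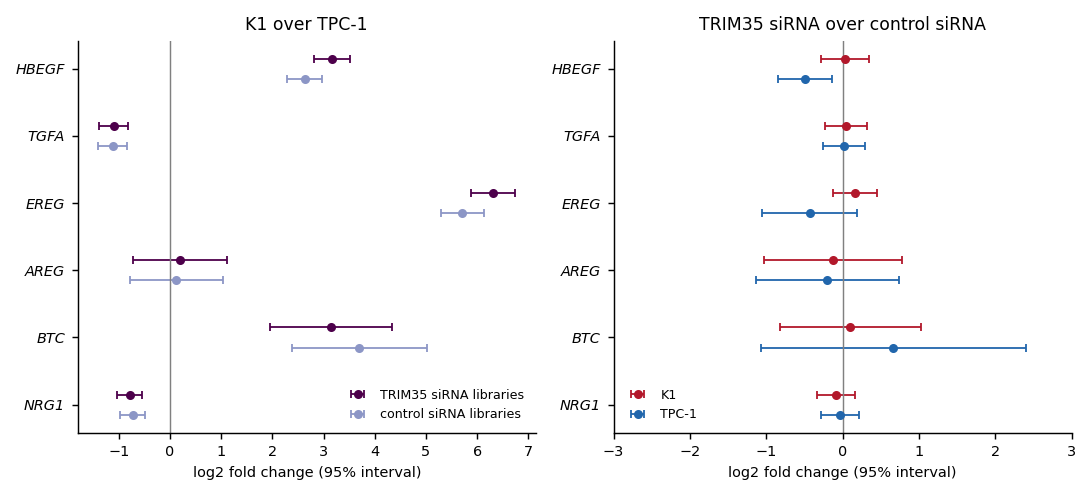
Log2 fold change of each ligand gene with its 95% interval (horizontal axes), for K1 over TPC-1 (left) and for TRIM35 siRNA over control siRNA (right). The line contrasts reach 6.31 for EREG and -1.12 for TGFA, while the siRNA intervals include 0 for every ligand except HBEGF in TPC-1.

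On chromosome 4, EREG and BTC were higher in K1 while AREG, which lies between them, was not. The table holds 34 genes within 500 kb of the cluster that runs from EPGN (epigen, another EGFR ligand) to BTC, and 12 of these were tested. Of the 12, 9 were higher and 1 lower in K1 under control siRNA, where 35.8% of all tested genes were higher, and AREG and CXCL5 did not pass. CXCL6, EPGN, EREG, BTC and ENSG00000249942 passed the count filter through K1 groups alone, so being higher in K1 was partly a condition of their being tested. Of the 7 others, 4 were higher. EPGN averaged 1.17 FPKM in K1 and 0.0733 FPKM in TPC-1 control libraries (log2 fold change 3.88, SE 0.39, adjusted p = 2.94e-07). The neutrophil chemokine genes CXCL6 (8.22, SE 0.32), CXCL2 (4.26, SE 0.19), CXCL1 (4.24, SE 0.17) and CXCL3 (4.08, SE 0.22) of the same region were also higher in K1, although near-identical copies such as CXCL1, CXCL2 and CXCL3 may share reads, and CXCL5 lay at 0.46 (SE 0.35, adjusted p = 0.255). MTHFD2L, a mitochondrial folate enzyme gene between the chemokines and EPGN, differed less (0.49, SE 0.13, adjusted p = 0.00371). Of 2 genes without a symbol, ENSG00000249942 was higher (2.58, SE 0.61) and ENSG00000269559 lower in K1 (-1.43, SE 0.32). ENSG00000269559 lies within the span of MTHFD2L on the opposite strand, and without strand the reads of both cannot be told apart.

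**Figure D4:**
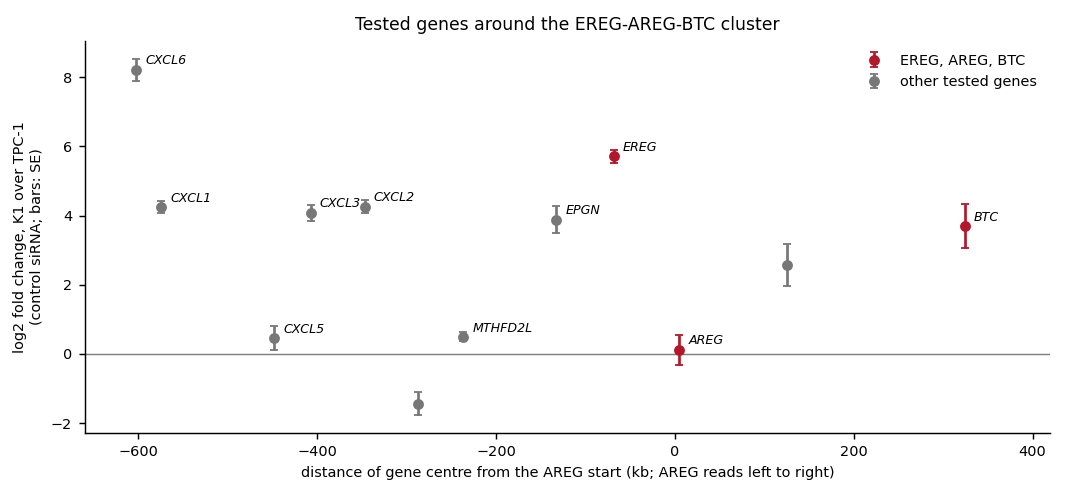
Log2 fold change of K1 over TPC-1 in the control siRNA libraries (vertical axis, bars show SE) for the 12 tested genes of the chromosome 4 region, by distance from the AREG start in kb (horizontal axis). EREG at 5.71 and BTC at 3.70 lie on either side of AREG at 0.12.

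The other ERBB ligands were low in both lines. Of 5 such genes 4 were tested, and all 4 were higher in K1 under control siRNA, against 35.8% of all tested genes. EPGN and NRG4 passed the count filter through the K1 groups alone, which partly fixed their direction. Beside EPGN, these were NRG4 (0.243 ± 0.0764 FPKM in K1 and 0.0667 ± 0.0379 in TPC-1 control libraries, adjusted p = 0.00404), NRG2 (0.610 ± 0.0872 and 0.240 ± 0.0900, adjusted p = 0.00224) and EGF itself (114 counts over the K1 and 42 over the TPC-1 control libraries, adjusted p = 0.0103), with SD and n = 3 for the FPKM values. NRG2 did not pass between the siRNA libraries (log2 fold change 0.68, adjusted p = 0.0551). NRG3 had 0 counts in all 12 libraries.

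Among the receptors, EGFR, the receptor of AREG, TGFA, HBEGF, BTC and EREG, averaged 19.97 ± 2.64 FPKM in K1 and 10.1 ± 1.29 FPKM in TPC-1 control libraries (SD, n = 3 each), a log2 fold change of 0.88 (SE 0.15, adjusted p = 8.07e-05). Between the siRNA libraries it was 1.11 (SE 0.15, adjusted p = 8.05e-06). ERBB2, the co-receptor without a known ligand, averaged 3.05 ± 0.230 and 2.72 ± 0.0100 FPKM in the same K1 and TPC-1 control groups (0.07, 95% interval -0.22 to 0.36, adjusted p = 0.673). ERBB3, a receptor of NRG1 that passed the count filter through the K1 groups alone, was low but higher in K1 (0.177 ± 0.0404 and 0.0367 ± 0.0208 FPKM, adjusted p = 0.00280). ERBB4 had 4 counts over the K1 control and 3 over the TPC-1 control libraries and was not tested. ERBB4, the further receptor of HBEGF, BTC, EREG and NRG1, was thus near the limit of detection in both lines, and ERBB3 stayed at or below 0.24 FPKM in every library.

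Genes that process the ligands moved in both directions. Of 10 tested, 4 were higher and 2 lower in K1 under control siRNA, with a median log2 fold change of 0.03, against 35.8% higher and 32.1% lower over all tested genes. In the siRNA libraries 3 were higher and 1 lower, against 35.9% and 32.4% of all tested genes. RHBDF1 (adjusted p = 0.0949) and ADAM10 (adjusted p = 0.0865) did not pass there. ADAM12, a metalloprotease that can release HBEGF, averaged 10.3 ± 0.989 FPKM in K1 and 0.777 ± 0.150 in TPC-1 control libraries (SD, n = 3 each; log2 fold change 3.63, SE 0.16, adjusted p = 1.94e-11). RHBDF2, an inactive rhomboid that the sheddase ADAM17 needs to mature, lay at 1.67 (SE 0.15, adjusted p = 9.33e-08), and ADAM9 at -0.99 (SE 0.18, adjusted p = 1.66e-04). RHBDL2, a rhomboid protease that can cleave EGF, passed the filter through the K1 groups alone and had 334 counts over the K1 control and 1 over the TPC-1 control libraries, a ratio of 275 (95% interval 49.1 to 10913, counting error only). ADAM17 itself, named here after its values were seen, lay at -0.08 (95% interval -0.65 to 0.48, adjusted p = 0.792).

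Of 8 adaptor genes, 2 were higher and 2 lower in K1 under control siRNA, against the same 35.8% and 32.1% of all tested genes, namely PIK3R1 (1.36, SE 0.17) and PLCG1 (0.70, SE 0.16) and, on the lower side, GAB1 (-0.68, SE 0.13) and SOS2 (-0.40, SE 0.15). GAB1 and SOS2 did not pass between the siRNA libraries (adjusted p = 0.0902 and 0.0519). There 3 adaptors were higher and 1 lower, against 35.9% and 32.4% of all tested genes. Another 8 genes were listed as negative regulators of the receptors, a role not tested here. Of these, 4 were higher and 3 lower under control siRNA, against 35.8% and 32.1% of all tested genes. In the siRNA libraries 4 were higher and 1 lower, against 35.9% and 32.4% of all tested genes. CBL (adjusted p = 0.163) and LRIG3 (adjusted p = 0.0597) did not pass there. The higher ones included LRIG1 (4.05, SE 0.39), a membrane protein that promotes receptor degradation and passed the filter through the K1 groups alone, the ubiquitin ligase CBLB (1.98, SE 0.15) and LRIG2 (0.88, SE 0.17). The feedback inhibitor of EGFR, ERRFI1, was lower in K1, at 16.9 ± 0.774 FPKM against 52.5 ± 1.55 FPKM in TPC-1 control libraries (-1.73, SE 0.11, adjusted p = 2.12e-09).

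Genes known to follow ERK activity were mostly higher in K1, where 11 of 13 passed upwards and 0 downwards under control siRNA, against the 35.8% of all genes given above. Their median log2 fold change was 1.02, against 0.06 over all tested genes. The 4 with the smallest adjusted p were PHLDA1 (2.41, SE 0.14), the ERK phosphatase DUSP6 (3.00, SE 0.21), the signalling inhibitor SPRY2 (1.87, SE 0.14) and the phosphatase DUSP4 (2.40, SE 0.19). In the siRNA libraries 10 of 13 passed upwards and 0 downwards, against 35.9% and 32.4% of all tested genes. Across the 6 lists around the ligands, no gene passed for TRIM35 siRNA against control in either line or for the difference, where edgeR called 0 genes in all.

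**Figure D5:**
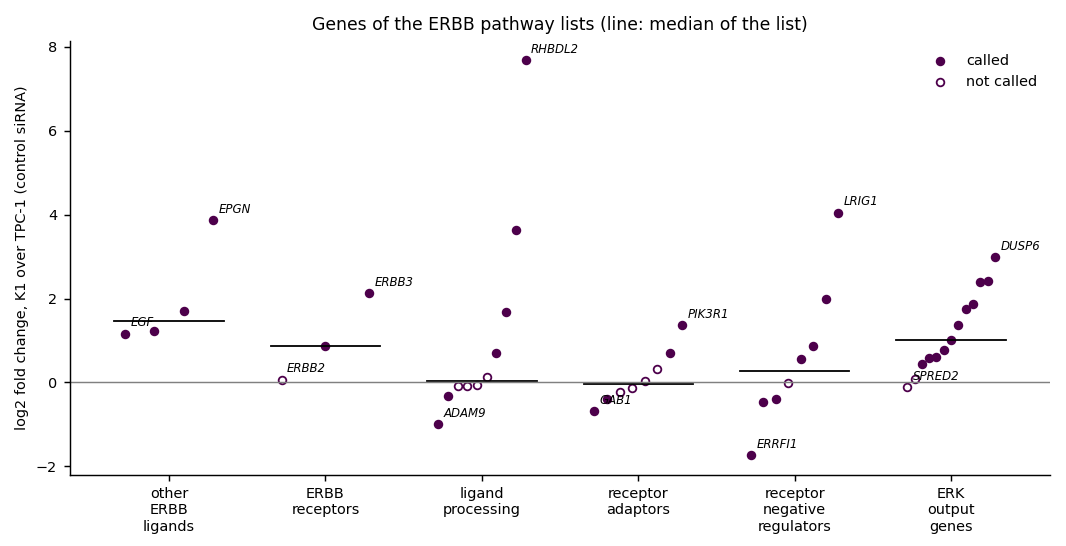
Log2 fold change of K1 over TPC-1 in the control siRNA libraries (vertical axis) for the tested genes of the 6 lists, with filled points for genes that passed, open points for the rest and a line at each list's median. The ERK output genes have a median of 1.02, and RHBDL2 is drawn at its fitted value, which rests on 1 TPC-1 count.

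Within a line, the genes whose TMM-scaled log2 CPM was most like that of a ligand over its 6 libraries were sought among tested genes with a mean of at least 5 FPKM, 6268 in K1 and 6177 in TPC-1. These Pearson r values rest on 6 libraries that share depth and the first principal component, and with so many genes searched high values arise readily. In K1, AREG was most like ATF3, a stress-induced transcription factor (r = 0.99), ZNF185 (0.99) and PRR11 (0.98). HBEGF in K1 was most like TTC9C (1.00), EREG like DLGAP1-AS1 (0.98), BTC like RINT1 (0.99) and NRG1 like ZBTB18 (0.98). K1 control library 1 and siRNA library 3, which share an end of that component, held the 2 highest AREG and the 2 highest HBEGF and TGFA levels of the 6 on the log2 CPM scale. In TPC-1, HBEGF was most like MARS1 (0.98), TGFA like RBM26 (0.99), AREG like FOXC1 (0.94) and NRG1 like ADNP (0.96). EREG and BTC had fewer than 10 counts in a TPC-1 library and were not compared there. The next genes in K1 were HHLA3 and TFAP2C for HBEGF, SEL1L3 and EIF2AK2 for EREG, NAMPTP1 and EIF4E for BTC, and PPP1R15B and SMURF2 for NRG1, with r of 0.94 or more. TGFA in K1 was like KCMF1 and RANBP9 (both 1.00). In TPC-1 they were CYREN and ENTR1 for HBEGF, TLE1 and BTG1 for TGFA, KHSRP for AREG, and SH3BP4 and SH3RF1 for NRG1, with r of 0.93 or more.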

How the data were processed

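Total RNA from 12 libraries was profiled by RNA sequencing after random-primed cDNA synthesis, per the labels' protocols. Trimming used cutadapt 1.9.1 and coordinates are on hg38, per the submitters' processing notes. Aligner, counter, annotation release and strandedness: not given in the sources used here. Raw counts per gene and FPKM values were deposited by the authors, and the FPKM equal counts over exonic size and count sum.

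The count test was edgeR 4.0.16 under R 4.3.3 (filterByExpr, TMM, glmQLFit with 1 mean per group over all 12 libraries, Benjamini-Hochberg over 17447 genes, calls at adjusted p under 0.05). Each SE comes from the log2 fold change and its F statistic. Intervals are at 95%. Replicates have no stated origin, so p-values measure only the spread between libraries, which may be technical. Counting intervals cover counting error only.

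Alternatives were DESeq2 1.42.0, limma 3.58.1 on log2(FPKM + 0.1) or log2(FPKM + 1), other scalings and filters, a replicate block, fits on the groups compared and leaving out each library. The tests were also run on simulated counts that carried no component shared between libraries. The changes put in were larger than the siRNA changes of the ligands given above, so that run is no check on changes as small as those. The labels do not pair same-numbered libraries, and the main test used no pairing. Between siRNA and control libraries of TPC-1, deviations from group means correlated at 0.379, 0.0857 and 0.406 for the same number. The crossed TPC-1 libraries 1 and 3 gave -0.308 and -0.413, so libraries 1 and 3 went together by number in that line. In K1 the same-numbered values were -0.491, 0.0864 and -0.526.

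The ligands, lists and tests were chosen with earlier results of these data known. Named genes are the 6 ligands, TRIM35, all other ligands and receptors, the 4 genes of each further list with the smallest adjusted p between control lines, the 3 most alike genes per ligand and line (some are not reported here), and tested genes within 500 kb of the chromosome 4 cluster.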

Additional observations from a re-analysis of the deposited data

How the results depend on the processing

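The 5 ligands called between the lines kept their direction and call under every alternative that tested them, and AREG was not called under any. EREG moved most, to 4.95 with limma on log2(FPKM + 0.1) and 2.75 with log2(FPKM + 1) under control siRNA, and to 5.31 and 2.93 under TRIM35 siRNA; the pseudocount compresses low genes. EREG and BTC rest on at most 14 counts a TPC-1 library. Limma could not test AREG or BTC. Upper-quartile scaling moved the median of all genes between the lines up by 0.14 under control siRNA and 0.13 under TRIM35 siRNA, and relative to it the ligands kept their direction.

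No ligand was called for TRIM35 siRNA or for the difference under any alternative. With every gene that had a count kept, edgeR called 2 genes in TPC-1, 2 in K1 and 4 for the difference, and DESeq2 called 1 in TPC-1 and 2 for the difference; the cause was not tested. Leaving out 1 library gave 0 to 1 genes for the difference. With the replicate number as a block, edgeR called 11678 and 11645 genes between the lines under control and TRIM35 siRNA and 0 otherwise, and the ligand calls were kept; for TPC-1, the same-numbered libraries had correlations of 0.379, 0.0857 and 0.406, and for K1 of -0.491, 0.0864 and -0.526.

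Several values that were not called changed sign when single libraries were left out, among them BTC in TPC-1 (0.66) and for the difference (-0.56). Between the lines AREG ranged from -0.47 to 0.39 under control siRNA and from -0.18 to 0.53 under TRIM35 siRNA. For TRIM35 siRNA in TPC-1, TGFA ranged from -0.0078 to 0.11, NRG1 from -0.089 to 0.035 and BTC from -0.082 (without siRNA library 3) to 1.09. In K1, AREG ranged from -0.49 to 0.46 (without control library 1), HBEGF from -0.037 to 0.11, TGFA from -0.078 to 0.11 and BTC from -0.097 to 0.30. For the difference, AREG ranged from -0.31 to 0.66, TGFA from -0.11 to 0.091, BTC from -0.99 to 0.18 and NRG1 from -0.13 to 0.0066. Without both K1 libraries 3, chosen after the data had been seen, AREG was -0.19 between the siRNA lines and -0.48 for the difference, TGFA -0.19 for the difference and -0.15 in K1, and HBEGF -0.11 in K1. Without a filter TGFA was -0.0074 for the difference. None of these values was called.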
